A study of Homo sapiens with 2 samples.

Results

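The genes described here encode the nuclear subunits of the mitochondrial respiratory chain and of ATP synthase. They were chosen by symbol: names that begin with NDUF, UQCR or ATP5, the names SDHA to SDHD and CYC1, and the names COX4 to COX8. On the array 174 probe sets pair with exactly 1 such symbol, and they stand for 91 of 19775 named genes. Of the 91, 77 are subunits: 33 of complex I, 3 of complex II, 7 of complex III, 17 of complex IV and 17 of complex V. The other 14 are 8 assembly factors of complex I, the ATP synthase inhibitor ATP5IF1, 2 pseudogenes and 3 antisense or divergent RNAs. Subunits that the annotation does not list, or lists only together with other genes, are not among the 77.

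Stable derivatives of C33-A were compared, 1 array for each. C33-A is an established human cervical carcinoma line without papillomavirus, and it grows as adherent epithelial cells. The first derivative, here CA9 cells, carries the full-length human CA 9 cDNA in pcDNA3.0 and the second, vector cells, carries the empty plasmid. CA9 encodes carbonic anhydrase IX, a surface enzyme that turns carbon dioxide into bicarbonate and protons and that hypoxic tumours make in quantity. Both were kept in RPMI with 10% serum and RNA was taken on day 4. The labels do not say whether either line is a single clone. The transgene's own level was not analysed here, so it does not check the labels. Nothing was replicated, and every difference below is one between 2 arrays with no test.

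The respiratory chain passes electrons from NADH through complex I, or from succinate through complex II, by way of ubiquinone to complex III and then by cytochrome c to complex IV, which reduces oxygen. Complexes I, III and IV pump protons across the inner mitochondrial membrane, and ATP synthase, called complex V, uses the return flow to make ATP. A few subunits are encoded in mitochondrial DNA and all others in the nucleus. Many of the nuclear genes are known targets of the transcription factors NRF1 and GABPA. In hypoxic cells, HIF lowers respiration by exchanging some subunits and by diverting pyruvate.

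Values are the authors' RMA intensities on a linear scale, and a difference is the log2 intensity of CA9 cells minus that of vector cells. A gene is given by its brightest probe set. It counts as measurable if the brighter array lies above an intensity of 40.8, the median over both arrays once control probe sets were set aside. Of the 77 subunits 75 were measurable, 74 of them on both arrays, and COX7B2 and COX8C were not. In the whole series 13823 genes were measurable. A gene is called higher or lower past a difference of 0.32 on the log2 scale, and a change of 2-fold is given apart. The pooled SD between the probe sets of a gene was 0.31 over 6186 genes, 0.22 over the 31 subunits with several probe sets above the floor and 0.13 over the 18 subunits with several probe sets at an intensity of 300 or more. This spread does not stand for that between cultures, because such probe sets read 1 RNA preparation on 1 array. In bulk RNA a smaller share of cells that express a gene and less RNA per cell cannot be told apart.

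The arrays had median intensities of 41.8 for CA9 cells and 40.1 for vector cells. The 3' minus 5' log2 signal for ACTB was 0.67 in CA9 cells and 0.73 in vector cells, and for GAPDH it was 0.06 in CA9 cells and 0.04 in vector cells. Of 7 epithelial markers 5 were measurable, with a median difference of 0.18 and a range from -0.30 for KRT5 to 0.57 for KRT8. KRT5 and KRT19, the gene at the median, were each above the floor on 1 array only. The defining epithelial genes EPCAM and CDH1 were below the floor on both arrays. All 6 stromal markers were measurable, PDGFRB on 1 array only, with a median difference of 0.19 and a range from -0.05 for COL1A1 to 0.55 for THY1. The brightest marker was the stromal COL3A1, at 2538 in CA9 cells and 2339 in vector cells. Of the 3 blood markers PTPRC and CD14 were measurable, each on 1 array only. The part of these markers in the differences below was not tested.

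No measurable subunit differed by 2-fold or more, against 1.35% of all measurable genes. Past 0.32, 4 of 75 subunits (5.33%) were higher in CA9 cells, against 16.2% of all measurable genes, and 11 (14.7%) were lower, against 17.7%. The other 60 lay within 0.32. The median difference of the subunits was -0.08, with 53 of 75 below 0, and that of all measurable genes was -0.03, with 53% below 0. The split of 4 higher and 11 lower subunits became 2 and 13 when both arrays were given the same median. It became 5 and 7 after quantile normalization and 5 and 6 after removal of the intensity trend. Of all measurable genes 12.7% were higher and 23.3% lower with equal medians. These shares were 16.9% and 14.7% after quantile normalization, and 16.8% and 14.6% after trend removal.

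Most subunits are bright, and bright genes of every kind tended to be lower on the CA9 array. A mean intensity of 300 or more was reached by 70 of the subunits, whose median was -0.09 with 52 (74.3%) below 0, and by 3758 genes in all, whose median was -0.10 with 66.2% below 0. Among those 70 subunits 2 (2.86%) were higher by at least 0.32, against 5.75% of the 3758 genes, and 11 (15.7%) were lower by at least 0.32, against 15.5%. The subunits with a mean intensity between 300 and 1000 had a median of -0.16 (15 subunits), against -0.12 for all genes of that range. Between 1000 and 3000 the medians were -0.10 (32 subunits) and -0.08, and above 3000 they were -0.03 (23 subunits) and -0.03. The medians of the subunits thus lay close to those of other genes of their brightness. A larger share of subunits than of all genes was below 0 in each range. It was 80% against 68.0% from 300 to 1000, 78.1% against 63.1% from 1000 to 3000 and 65.2% against 56.5% above 3000.

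**Figure D1:**
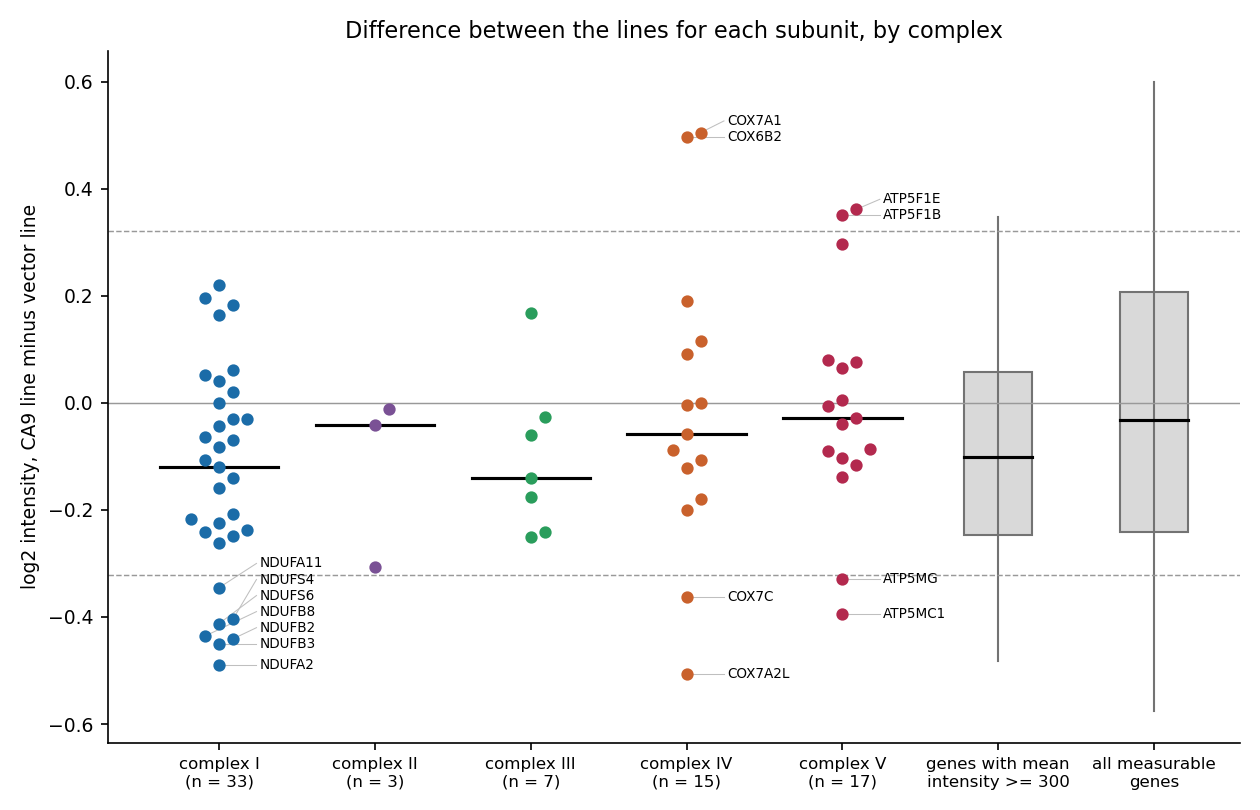
Log2 difference, CA9 minus vector, of each measurable subunit (points) by complex, with the median of the complex as a black bar. The boxes give the quartiles and median, and their lines the 5th and 95th percentile, of genes with a mean intensity of 300 or more and of all measurable genes. Dashed lines mark 0.32 in either direction, and the 15 subunits past them are named: 7 of complex I, all lower, and 4 each of complexes IV and V, 2 in each direction.

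Complex I oxidises NADH in an arm that reaches into the matrix and pumps protons through an arm in the membrane. Of its 33 subunits 7 (21.2%) were lower past 0.32, against 17.7% of all measurable genes and 15.5% of those at 300 or more. In the other direction 0 were higher, against 16.2% and 5.75%. The median was -0.12, with 24 below 0, 8 above it and 1 at exactly 0. Of all measurable genes 53% were below 0, and of those at 300 or more 66.2%. The 14 listed subunits of the matrix arm had a median of -0.14 with 1 above 0, and the 18 of the membrane arm one of -0.12 with 6 above 0. The 5 listed subunits of the catalytic core, NDUFV1, NDUFV2, NDUFS1, NDUFS3 and NDUFS7, had a median of -0.07, and none of them was past 0.32.

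In the matrix arm NDUFA2, an accessory subunit near the site of NADH oxidation, had an intensity of 954 in CA9 cells and 1338 in vector cells, 1.40-fold lower. Its other probe sets lay below the floor. NDUFS6, which binds zinc, stood at 1813 in CA9 cells and 2414 in vector cells, 1.33-fold lower, and this held under all 9 alternative settings. NDUFS4, mutated in Leigh syndrome, had 423 in CA9 cells and 559 in vector cells, a difference of -0.40. NDUFV1, the flavoprotein that takes electrons from NADH, was on the other side of 0, at 927 in CA9 cells and 816 in vector cells, with differences of 0.18 in this probe set and 0.39 in a dimmer one.

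In the membrane arm 4 accessory subunits were lower. NDUFB3 had 809 in CA9 cells and 1105 in vector cells, 1.37-fold lower in its only probe set and past 0.32 in all 8 settings that could be run for it. For NDUFB2 the values were 2021 in CA9 cells and 2743 in vector cells. That is 1.36-fold lower, but a second bright probe set, at 939 in CA9 cells and 974 in vector cells, had a difference of -0.05. NDUFB8 likewise had 1384 in CA9 cells and 1871 in vector cells in the brightest probe set, a difference of -0.44, and 1258 in CA9 cells and 1448 in vector cells in the second, a difference of -0.20. NDUFA11 had 1496 in CA9 cells and 1900 in vector cells (-0.35), with other probe sets at -0.26 and, at dim signal, -0.03. The probe sets of these 3 genes have the same direction where they are bright and differ in size, and averaging all probe sets of each gene, dim ones included, left NDUFB3 and NDUFS6 of the 7 past 0.32. NDUFS4 and NDUFA11 were also short of it after quantile normalization and after trend removal.

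Accessory subunits of the same arm also stood above 0. NDUFA3 had 2692 in CA9 cells and 2310 in vector cells, a difference of 0.22, the highest in complex I, and NDUFC1 had 3594 in CA9 cells and 3138 in vector cells, a difference of 0.20. NDUFA7, of the matrix arm, had exactly the same value on both arrays, 474. The other 22 complex I subunits lay between -0.26 and 0.16. At the low end were the accessory subunits NDUFA5 at -0.26, NDUFB5 at -0.25 and NDUFB1 at -0.24. NDUFS1, which holds iron-sulfur clusters of the matrix arm, was at -0.04, NDUFV2, its neighbour beside the flavin, at -0.07, and NDUFAB1, the mitochondrial acyl carrier protein, at 0.06. At the high end NDUFB10 was at 0.16, with -0.12 in its second probe set.

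**Figure D2:**
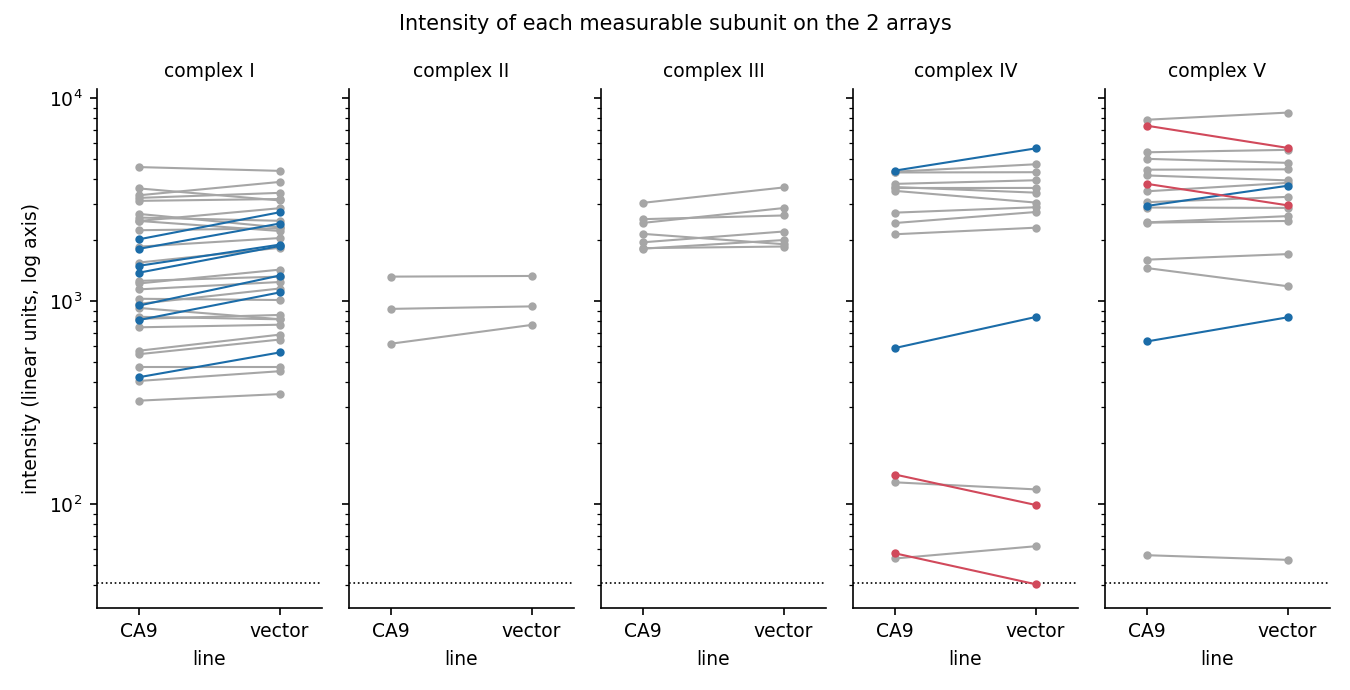
Intensity (linear units, log axis) of each measurable subunit in CA9 cells (left) and vector cells (right), in 1 panel per complex. Blue lines are the 11 subunits lower by at least 0.32 in CA9 cells, red lines the 4 higher by at least 0.32, grey lines the other 60, and the dotted line is the floor of 40.8. The dim subunits are tissue isoforms of complex IV and, in complex V, the only single-gene probe set of ATP5MF.

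Complex II, succinate dehydrogenase, is also an enzyme of the citric acid cycle. SDHA, its flavoprotein, had 917 in CA9 cells and 944 in vector cells, and SDHD, a membrane anchor, had 1322 in CA9 cells and 1332 in vector cells. Their differences were -0.04 and -0.01. SDHC, the other anchor, had 618 in CA9 cells and 765 in vector cells, a difference of -0.31 that lies just short of 0.32. All 6 SDHC probe sets above the floor were lower in CA9 cells, from -0.76 to -0.08. Of the 3 genes, SDHC thus stood apart, and after quantile normalization or trend removal SDHA and SDHD turned to above 0. The symbol SDHB was also looked for, but the annotation pairs no probe set with it alone, so complex II is described without it.

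Complex III passes electrons from ubiquinol to cytochrome c. None of its 7 subunits was past 0.32, 6 lay below 0, and the median was -0.14. Of all measurable genes 16.2% were higher and 17.7% lower past 0.32, and 53% were below 0. Of those with a mean intensity of 300 or more, 5.75% were higher, 15.5% lower and 66.2% below 0. UQCR10, a small subunit, had 3055 in CA9 cells and 3635 in vector cells, a difference of -0.25, and a dimmer probe set had -0.48. UQCRB, which takes part in ubiquinone binding, had 2434 in CA9 cells and 2878 in vector cells, a difference of -0.24, with -0.14 and -0.48 in its other probe sets above the floor. UQCR11, another small subunit, had 1952 in CA9 cells and 2206 in vector cells, a difference of -0.18, and 0.04 in its other probe set. The exception was UQCRC1, a core protein, which had 2147 in CA9 cells and 1910 in vector cells, a difference of 0.17. UQCRC2, the other core protein, was at -0.14. UQCRQ had 2537 in CA9 cells and 2645 in vector cells, a difference of -0.06, and CYC1, cytochrome c1, had 1827 in CA9 cells and 1860.3 in vector cells, a difference of -0.03.

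Complex IV, cytochrome c oxidase, has several subunits with both a common form and a form of muscle, lung or testis. Of 17 listed subunits 15 were measurable, 2 (13.3%) were past 0.32 in each direction, against 16.2% higher and 17.7% lower of all measurable genes, and the median was -0.06. COX7A2L, which in mammals links complexes III and IV into supercomplexes and is related to COX7A2, had 589 in CA9 cells and 837 in vector cells. It was 1.42-fold lower, the lowest difference of all subunits at -0.51, and stayed past 0.32 in all 9 alternatives, but it has 1 probe set. COX7C had 4403 in CA9 cells and 5660 in vector cells, 1.29-fold lower, with other probe sets at -0.52 and -0.25. Trend removal left COX7C just short of the threshold.

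Both complex IV subunits higher past 0.32 were dim tissue isoforms. COX6B2, a testis form, had 140 in CA9 cells and 99.3 in vector cells, 1.41-fold higher, while the common COX6B1 had 2429 in CA9 cells and 2751 in vector cells, a difference of -0.18. COX7A1, the heart and muscle form, had 57.3 in CA9 cells and 40.4 in vector cells, a value under the floor, which makes it at least 1.40-fold higher. Its common partner COX7A2 had 3612 in CA9 cells and 3615 in vector cells, a difference of 0.00. COX4I2, a form of lung that hypoxia induces in other cells, had 128 in CA9 cells and 118 in vector cells, a difference of 0.12. COX4I1, the common form, had 4345 in CA9 cells and 4728 in vector cells, a difference of -0.12. COX6A2, the muscle form, had 54.1 in CA9 cells and 62.2 in vector cells, a difference of -0.20, and COX6A1 had 4308 in CA9 cells and 4321 in vector cells, a difference of 0.00.

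The isoforms COX7B2 and COX8C were below the floor in both lines, COX7B2 at 33.2 in CA9 cells and 15.4 in vector cells and COX8C at 10.3 in CA9 cells and 10.1 in vector cells, and no fold is given for them. COX7B had 3495 in CA9 cells and 3063 in vector cells, a difference of 0.19, and COX8A, the common partner of COX8C, had 3651 in CA9 cells and 3427 in vector cells, a difference of 0.09. The common subunits COX5B, COX6C and COX5A were at -0.11, -0.09 and -0.06. At the lowest signals genes of every kind tended to be higher on the CA9 array. All measurable genes with a mean intensity under 100 had a median of 0.10, and 26.2% of them were higher by at least 0.32. Between 100 and 300, the range of COX6B2 and COX4I2, the median was -0.10, and 12.5% were higher and 25.03% lower.

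ATP synthase has a catalytic head, F1, joined by stalks to a rotor in the membrane, Fo. Of the 17 complex V subunits 2 (11.8%) were past 0.32 in each direction, against 16.2% higher and 17.7% lower of all measurable genes. Their median was -0.03. Of the 5 F1 subunits 3 were above 0 and 2 below it. ATP5F1B, the catalytic beta subunit, had 3784 in CA9 cells and 2968 in vector cells, 1.27-fold higher, in its only probe set. ATP5F1E, the epsilon subunit of the central stalk, had 7315 in CA9 cells and 5693 in vector cells, 1.28-fold higher, with a dim second probe set at 76.3 in CA9 cells and 82.4 in vector cells that had a difference of -0.11. ATP5F1D, the delta subunit of the same stalk, had 1456 in CA9 cells and 1186 in vector cells, 1.23-fold higher, and its second probe set, at 497 in CA9 cells and 399 in vector cells, had a difference of 0.32.

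The brightest probe sets of the other F1 subunits were below 0. ATP5F1A, the alpha subunit that alternates with beta in the head, had 7836 in CA9 cells and 8496 in vector cells, a difference of -0.12. Its dim second probe set was above 0, at 0.13, and the gene stood at 0.01 when its probe sets were averaged. ATP5F1C, the gamma subunit that forms the shaft, had 3481 in CA9 cells and 3830 in vector cells, a difference of -0.14, with 3 other probe sets from -0.26 to -0.19. ATP5F1C was below 0 under all 9 alternatives. When both arrays were given the same median, neither ATP5F1B nor ATP5F1E was past 0.32, at 0.29 and 0.30, and averaging with its dim probe set brought ATP5F1E to 0.13, whereas quantile normalization and trend removal put ATP5F1D past it as well.

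The 12 subunits of Fo and the peripheral stalk had a median of -0.03, with 4 above 0. Past 0.32, 2 (16.7%) were lower, against 17.7% of all measurable genes, and 0 were higher, against 16.2%. The ring-forming c subunit is made from 3 genes that encode the same mature protein behind different import sequences. ATP5MC1 had 635 in CA9 cells and 834 in vector cells, 1.31-fold lower, ATP5MC2 had 1603 in CA9 cells and 1707 in vector cells, a difference of -0.09, and ATP5MC3 had 4164 in CA9 cells and 3938 in vector cells, a difference of 0.08, with a second bright probe set at 0.29. ATP5MG, the g subunit of the membrane part, had 2950 in CA9 cells and 3706 in vector cells, 1.26-fold lower, and all 4 of its probe sets lay between -0.49 and -0.27. Both were short of 0.32 after quantile normalization, at -0.31 for ATP5MC1 and -0.29 for ATP5MG, and after trend removal, at -0.30 and -0.28. The remaining subunits, such as ATP5PF at -0.10, ATP5PD at -0.09 and ATP5PB at 0.07 of the peripheral stalk and ATP5ME at -0.03 and ATP5MJ at 0.01 of the membrane part, lay between -0.10 and 0.08.

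ATP5IF1, which blocks ATP hydrolysis by the enzyme when the membrane potential falls, had 762 in CA9 cells and 990 in vector cells, a difference of -0.38, and its other probe sets had differences of -0.32 and -0.22. The pseudogene COX6A1P1 had 79.3 in CA9 cells and 47.7 in vector cells, a difference of 0.73, and ATP5MC2P1 had 53.5 in CA9 cells and 40.6 in vector cells, the second value below the floor. Probe sets of pseudogenes and those of their parent genes can share transcripts. Of the antisense and divergent RNAs, NDUFV1-DT was at -0.16, NDUFB2-AS1 at 0.28 and NDUFV2-AS1 below the floor in both lines. In 41 of the 75 measurable subunits the brightest probe set is of the kinds _s_at or _x_at, which can also detect related transcripts.

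Of the 31 subunits with several probe sets above the floor, the next-brightest had the sign of the brightest in 21 and the other sign, or a value of 0 in one of them, in 10. ATP5MG, SDHC, COX7C and NDUFA11 were lower in every such probe set. NDUFV3, at -0.24 and 0.23, and COX7B, at 0.19 and -0.21, had probe sets on both sides of 0. The widest gap was that of NDUFB7, with -0.11 in a probe set of 324 in CA9 cells and 349 in vector cells and 0.68 in one of 54.3 in CA9 cells and 33.8 in vector cells, the last value below the floor.

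**Figure D3:**
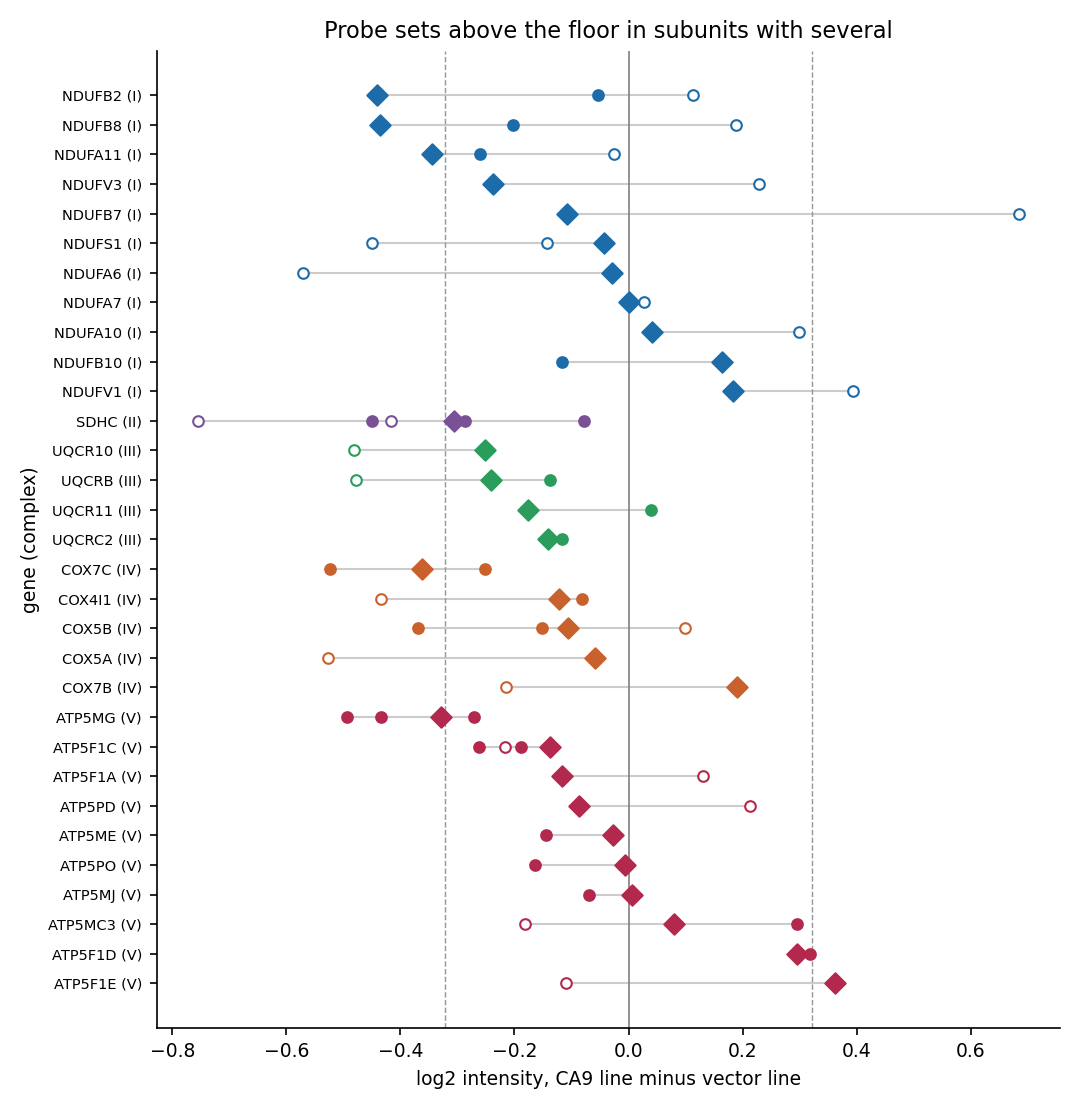
Log2 difference, CA9 minus vector, of every probe set above the floor for the 31 subunits with several. Diamonds are the brightest probe set of a gene and circles the others, open where the mean intensity is under 300, and dashed lines mark 0.32 in either direction. Filled symbols of a gene lie close together in most rows, and the wide rows, such as NDUFB7 and NDUFA6, end in an open circle.

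What the subunit genes share beyond the array values can be read from their promoters. RefSeq promoter windows (GRCh38.p14, 250 bases before to 50 after the start) were at hand for 65 of the 77 subunits. The core of an NRF1 site, read here as GCGC, any base and then TGCGC, was found on either strand in 16 of the 65 (24.6%), against 9.66% of 15842 protein-coding genes and 6.98% of all 27305 genes with a window. The ETS core CCGGAAG, to which GABPA binds, was in 19 (29.2%), against 16.5% of protein-coding and 12.2% of all genes. The YY1 core AAGATGGC was in 11 (16.9%), against 4.66% and 3.52%. TATAAA was in 7 (10.8%), against 12.4% and 14.0%, and the ERR element TCAAGGTCA was in 1, SDHD, against 0.335% and 0.432%. No matches of different motifs overlapped in these windows. Together 38 of the 65 (58.5%) held at least 1 of the NRF1, GABPA and YY1 cores, against 26.9% of protein-coding genes. A match is one of letters and does not show binding.

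The SDHA promoter is shown because it holds the NRF1 letters 4 times, each match 49 bases from the next. The stretch lies at chr5:218144-218319 on the + strand, 5′ to 3′, with the matches in capitals, which here read the core from the other strand.
SDHA: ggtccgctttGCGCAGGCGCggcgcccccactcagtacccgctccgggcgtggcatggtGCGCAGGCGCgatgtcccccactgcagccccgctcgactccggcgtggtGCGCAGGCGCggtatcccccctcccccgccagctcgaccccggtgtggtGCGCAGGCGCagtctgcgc

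Next come stretches from a gene that was lower in CA9 cells, NDUFA11 (chr19:5903859-5903908, - strand), and from genes that were on the high side, NDUFA3 (chr19:54102762-54102811, + strand) and UQCRC1 (chr3:48609664-48609713, - strand). They are set side by side because all hold the NRF1 letters, in capitals, while their differences were -0.35, 0.22 and 0.17. The windows differ in other matches: those of NDUFA3 and UQCRC1 also hold the YY1 core, which that of NDUFA11 does not. NDUFA3 also has a further NRF1 match that is not shown.
NDUFA11: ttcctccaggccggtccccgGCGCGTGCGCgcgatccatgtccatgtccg
NDUFA3: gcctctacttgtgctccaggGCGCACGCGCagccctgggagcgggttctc
UQCRC1: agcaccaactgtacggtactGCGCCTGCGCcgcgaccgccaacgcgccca

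For the ETS core, the ATP5F1A promoter (chr18:46098318-46098364, - strand) holds the letters on the reverse strand and the COX5B promoter (chr2:97646005-97646051, + strand) on the forward strand, again in capitals. Both genes lay within 0.32, at -0.12 and -0.11.
ATP5F1A: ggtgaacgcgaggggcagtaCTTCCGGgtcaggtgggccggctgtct
COX5B: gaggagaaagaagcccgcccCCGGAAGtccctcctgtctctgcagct

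The differences between the lines can be set beside these letters. Measurable subunits with the NRF1 core had a median difference of -0.06 (15 genes), against -0.10 without it (48 genes). With the ETS core the median was -0.10 (19 genes), against -0.08 without (44 genes), and with the YY1 core it was -0.03 (11 genes), against -0.11 without (52 genes). Of the 7 complex I subunits that were lower, NDUFA11 held the NRF1 core and NDUFS4 and NDUFB8 the YY1 core.

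The factors that build the complexes are made from separate genes. Of 52 listed assembly factors 49 were measurable, 14 (28.6%) were lower by at least 0.32 in CA9 cells, against 17.7% of all measurable genes, and 0 were higher, against 16.2%. Of all measurable genes with a mean intensity between 100 and 300, 25.03% were lower and 12.5% higher. At 300 or more, 15.5% were lower and 5.75% higher. With a floor at 300, 30 assembly factors remained, 9 lower and 0 higher. Of all genes past that floor 18.2% were lower and 6.43% higher. The counts of the assembly factors became 9 lower and 2 higher after quantile normalization and 7 lower and 3 higher after trend removal. Their median of -0.08 became 0.03 under both. Of all measurable genes 14.7% were lower and 16.9% higher after quantile normalization, and 14.6% and 16.8% after trend removal. SDHAF2, which attaches the flavin to SDHA, had 202 in CA9 cells and 333 in vector cells, a difference of -0.72. COX15, an enzyme of haem A synthesis for complex IV, had 170.0 in CA9 cells and 253 in vector cells, a difference of -0.57, and its 3 other probe sets above the floor were lower too, from -0.57 to -0.28. PET100, for complex IV, had 351 in CA9 cells and 515 in vector cells (-0.55), and TMEM126B, for complex I, had 590.1 in CA9 cells and 857 in vector cells (-0.54).

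The assembly factors of complex I whose names begin with NDUFAF numbered 8, with a median of -0.19. NDUFAF2 had 694 in CA9 cells and 918 in vector cells, a difference of -0.40, and NDUFAF6 had 205 in CA9 cells and 269 in vector cells, a difference of -0.39. By brightest probe sets NDUFAF4 was the only one above 0, with 1420 in CA9 cells and 1259 in vector cells and a difference of 0.17. Its dim second probe set, at 73.5 in CA9 cells and 89.8 in vector cells, had a difference of -0.29. NDUFAF8 was at -0.14, but its dim probe sets were at 0.56 and 0.37. The other probe sets above the floor of NDUFAF5, NDUFAF6 and NDUFAF7 were below 0.

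Electron carriers and the makers of ubiquinone gave 6 lower (31.6%) and 0 higher of 19 measurable genes, against 17.7% lower and 16.2% higher of all measurable genes. Most of the 19 had a mean intensity between 100 and 300. Of all measurable genes in that range 25.03% were lower and 12.5% higher. The median of the 19 genes was -0.07, which turned to 0.02 after quantile normalization and 0.03 after trend removal. SQOR, which passes electrons from sulfide to ubiquinone, had 69.1 in CA9 cells and 118 in vector cells, a difference of -0.77. ETFDH, which delivers electrons from fatty acid oxidation, had 88.3 in CA9 cells and 130 in vector cells (-0.56), and its other probe set above the floor was at -0.57. COQ8A and PDSS2, both of ubiquinone synthesis, were at -0.41 and -0.35. Averaging probe sets left 3 genes past 0.32, as did quantile normalization and trend removal. Of all measurable genes 13.2%, 14.7% and 14.6% were then lower, in that order.

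Among 20 measurable regulators of mitochondrial biogenesis, 3 (15%) were higher and 4 (20%) lower, close to the 16.2% and 17.7% of all measurable genes. The split became 1 higher and 7 lower when both arrays were given the same median, and 5 higher and 3 lower after quantile normalization. Of all measurable genes 12.7% were higher and 23.3% lower with equal medians, and 16.9% and 14.7% after quantile normalization. The regulators' median of -0.10 changed sign after quantile normalization (0.03). GABPB1, the partner of GABPA, had 106 in CA9 cells and 173 in vector cells, a difference of -0.71, with -0.39 in a second probe set. MTERF4, which acts in mitochondrial ribosome assembly, was at -0.57, but its other 3 probe sets above the floor ran from -0.37 to 0.28. The subunits of the mitochondrial DNA polymerase stood on opposite sides of 0. POLG, the catalytic one, had 256 in CA9 cells and 187 in vector cells, a difference of 0.45, and POLG2, the accessory one, had 303 in CA9 cells and 415 in vector cells, a difference of -0.45.

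The list of adenine nucleotide and phosphate carriers also holds membrane channels, uncoupling proteins and the ATP synthase inhibitor ATP5IF1. Of its 9 measurable genes, 1 was higher (11.1%, against 16.2% of all measurable genes). Another 2 were lower (22.2%, against 17.7%), the carrier SLC25A4 and the inhibitor ATP5IF1. The median of the list was 0.03, which turned to -0.03 when both arrays were given the same median. VDAC1, the outer membrane channel, had 2522 in CA9 cells and 1898 in vector cells, a difference of 0.41. SLC25A4, the adenine nucleotide carrier of heart and muscle, had 401 in CA9 cells and 532 in vector cells, a difference of -0.41. The phosphate carrier SLC25A3 was at 0.09. ATP5IF1, described above, completes the named genes of this list.

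Probe sets for 7 genes of mitochondrial DNA were named, and the 7 had a median of 0.17 with 5 above 0. In their brightest probe sets 0 were past 0.32, against 16.2% higher and 17.7% lower of all measurable genes. The 5 genes above 0 had intensities above 3000. In that range all measurable genes had a median of -0.03, with 3.38% higher and 3.80% lower. ND4, a proton-pumping subunit of complex I, had 14734 in CA9 cells and 12521 in vector cells, a difference of 0.23. A second ND4 probe set, at 13780 in CA9 cells and 10709 in vector cells, was past 0.32, at 0.36. ATP6 of ATP synthase had 14979 in CA9 cells and 12915 in vector cells, a difference of 0.21. ND6 had 278 in CA9 cells and 335 in vector cells, a difference of -0.27, and COX3 had 377 in CA9 cells and 430 in vector cells, a difference of -0.19. A second ATP6 probe set was at -0.09. The median of the genes of mitochondrial DNA was above 0 under all 9 alternatives, from 0.04 to 0.18. That of the nuclear subunits was below 0 under all 9, from -0.14 to -0.01. The value of 0.04 came without _x_at and _s_at probe sets, from 4 genes of which 2 were above 0. Genes with copies in the nuclear genome, as those of mitochondrial DNA have, can share signal with those copies.

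**Figure D4:**
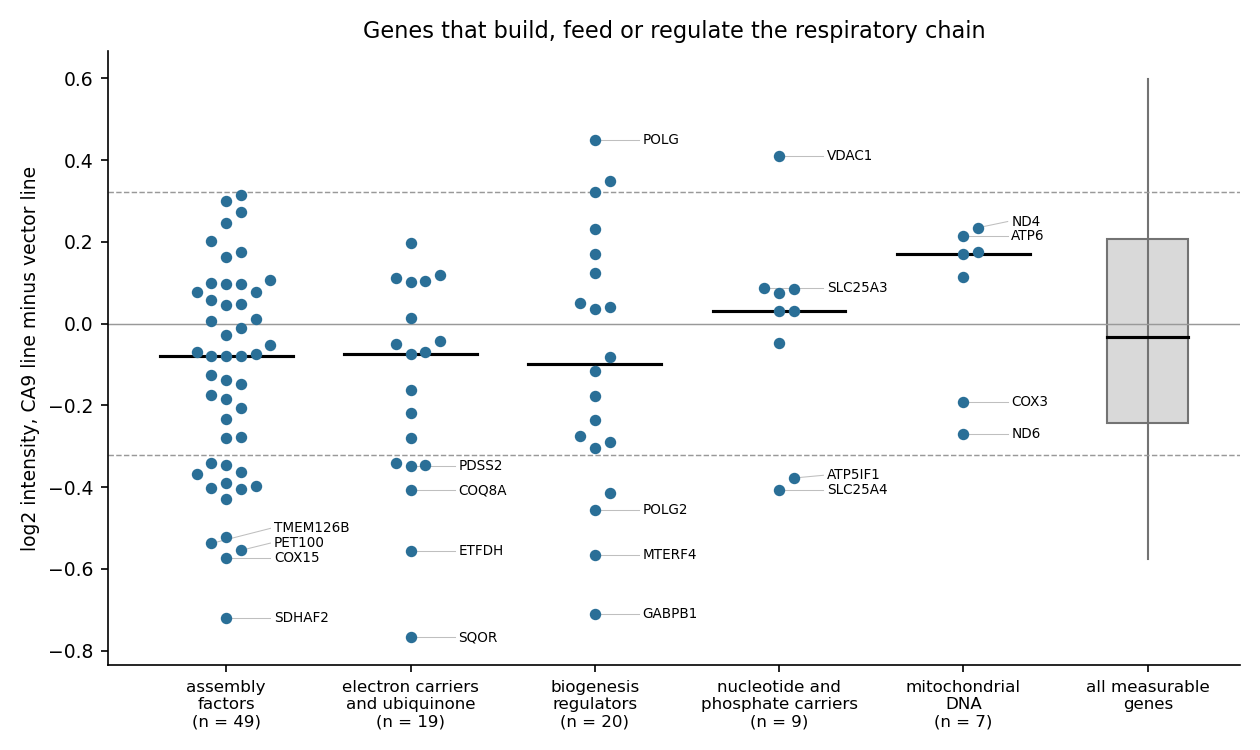
Log2 difference, CA9 minus vector, of the measurable genes (points) of 5 related lists, with the list's median as a black bar. The 4 genes of each list farthest from 0 are named, dashed lines mark 0.32 in either direction, and the box gives the median and quartiles, its lines the 5th and 95th percentile, of all measurable genes. The assembly factors and the electron carriers have points below the lower dashed line and none above the upper one, and 5 of the 7 genes of mitochondrial DNA lie above 0.

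**Figure D5:**
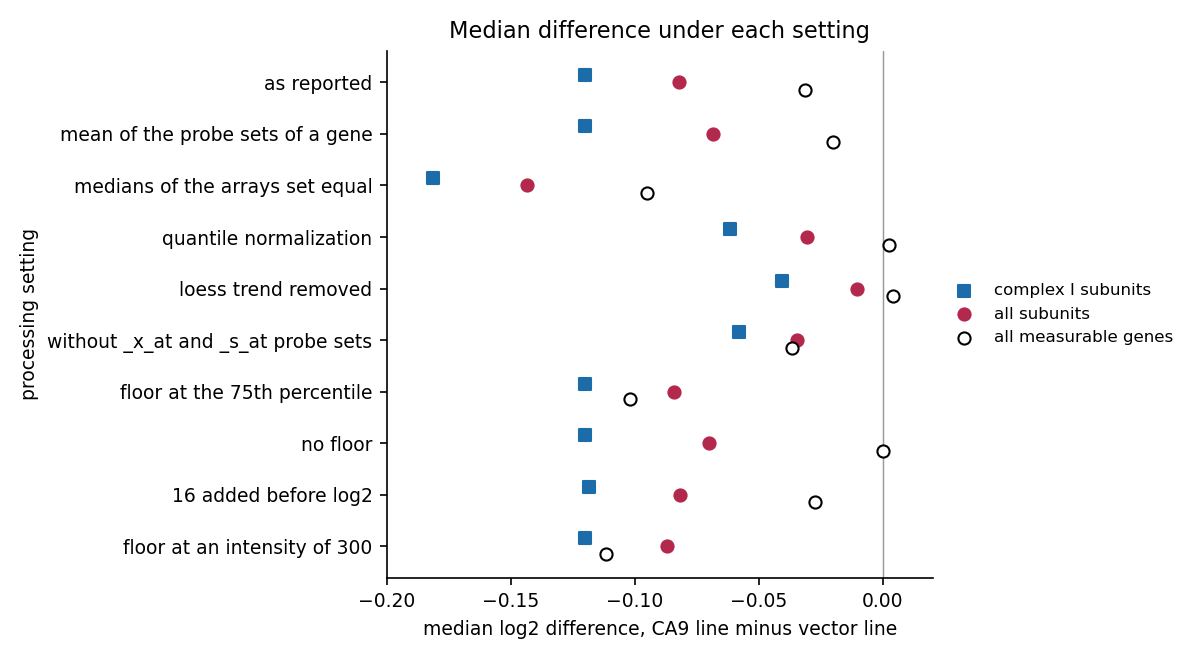
Median log2 difference, CA9 minus vector, of complex I subunits (squares), all subunits (filled circles) and all measurable genes (open circles) under the reported setting and 9 alternatives. The subunits' median runs from -0.14 to -0.01, below 0 in each setting. It lies below that of all genes as reported, at -0.08 against -0.03, and above it with the floor of 300, at -0.09 against -0.11.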

How the data were processed

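RNA of CA9 cells and of vector cells was hybridised to 1 Affymetrix array each, from biotinylated cRNA of 5 µg total RNA. For each array the deposited values are intensities, 1 a probe set, made by the authors with RMA, per the submitters' processing notes. The version, background step and probe definitions are not given in the sources used here. RMA usually returns log2 values, but the deposited intensities are linear, and log2 was taken without a pseudocount. The number of arrays limits the precision.

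Of 54675 probe sets, 41097 had 1 gene symbol in the platform annotation and 1801 several, which were left unnamed. Symbols of 41043 were updated through RefSeq GRCh38.p14. The members and lists were chosen with earlier results of these data known, and so was the threshold of 0.32. Every subunit could be named, with both intensities for the 3 highest and lowest of each complex, all tissue isoforms and all past 0.32, and of each other list the 4 genes farthest from 0. The background of genes at 300 or more was added after the data were seen. Promoter sequences are RefSeq's. Alternatives changed 1 choice at a time: probe sets averaged, equal medians, quantile normalization, a loess trend (span 0.3) removed, no _x_at or _s_at probe sets, other floors, and 16 added. Python 3.11.15, numpy 2.4.6, pandas 2.3.3, statsmodels 0.14.6 and matplotlib 3.10.9 were used, and the calculation was tested on simulated data.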

Additional observations from a re-analysis of the deposited data

How the results depend on the processing

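No paired analysis was possible because each line has 1 array, and no array could be left out. When both arrays were given the same median, 2 subunits were higher by at least 0.32, and the medians were -0.14 for all subunits, -0.18 for complex I and -0.14 for assembly factors. Quantile normalization gave 7 lower subunits and medians of -0.030, -0.062 and 0.029, and trend removal 6 lower subunits and medians of -0.010, -0.041 and 0.029. Without _x_at and _s_at probe sets 56 subunits remained, with medians of -0.035 for all, -0.058 for complex I, -0.38 for complex II (2 genes) and 0.076 for complex V. With no floor 1 subunit, COX7B2, was past 2-fold, and a floor of 300, chosen after seeing the data, left 2 higher subunits, since dim ones dropped out. The causes of the other shifts were not tested. Of the 15 subunits past 0.32, COX6B2, COX7A1, COX7A2L, NDUFB3 and NDUFS6 stayed past it under every alternative in which they were measurable, and none of the 15 changed sign. Averaging or leaving out _x_at and _s_at probe sets brought NDUFA11 as near to 0 as -0.03, NDUFB2 as near as -0.05 and NDUFB8 as near as -0.15. The subunits' median lay below that of all measurable genes as reported (a difference of -0.05) and above it by 0.0021 without _x_at and _s_at probe sets, by 0.018 with the floor at the 75th percentile and by 0.024 with the floor of 300.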

Other observations

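Probe sets that the annotation pairs with several genes entered no comparison. Of 10 that name a subunit of complexes I to V, 9 were above the floor, 8 of these were below 0 and 3 were lower by at least 0.32. Of all measurable genes 53% were below 0 and 17.7% lower, and of those at 300 or more 66.2% and 15.5%. NDUFS8 and NDUFC2 are each named by several of these probe sets, which are therefore not separate genes. The probe set shared by UQCRH and UQCRHL of complex III had an intensity of 5610 in CA9 cells and 6567 in vector cells, a difference of -0.23, and the bright one shared by NDUFC2 of complex I and its read-through transcript had 1933 in CA9 cells and 2361 in vector cells, a difference of -0.29. Of the 3 that name NDUFS8, which binds iron-sulfur clusters, 2 had differences of -0.38 and -0.69 and the brightest, at 1194 in CA9 cells and 1037 in vector cells, had 0.20. The bright probe set that names ATP5MF together with ARMC2-AS1 had 2722 in CA9 cells and 3077 in vector cells, a difference of -0.18, whereas the single-gene probe set of ATP5MF had 56.1 in CA9 cells and 53.3 in vector cells, a difference of 0.08.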
